A study of Drosophila melanogaster with 48 samples.

Results

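Basic helix-loop-helix (bHLH) proteins bind DNA as dimers, through a basic region next to a helix-loop-helix fold that holds the partners together. In the fly they include the proneural factors that commit cells to a neural fate, factors of muscle, gut and gland, the Myc and Max network of growth control, and the PAS family, whose members answer to oxygen, hormones or tissue identity. The genes described here are 34 bHLH genes that lie outside the achaete-scute and Enhancer of split complexes, taken by name, of 13922 protein-coding genes on the 6 chromosome arms. All 34 were found by symbol in the gene table. They were grouped by known role into 7 neural factors, 8 factors known mainly from other tissues, 2 general partners, 8 leucine zipper factors, 8 PAS factors and Hey, a factor that answers to Notch.

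The data are CUT&RUN peak lists for Zelda (Zld), a pioneer transcription factor that opens chromatin in the early embryo and is also found in neural stem cells. CUT&RUN cuts the DNA around an antibody-bound protein, so that sequenced fragments pile up where it sits. Of the 48 samples in the series, 4 are brains of third-instar (L3) larvae with anti-Zld, in 2 conditions with 2 replicates each, and 1 peak list per condition was analysed. The other samples of the series were not used here. The titles of the UAS-HA-Zld condition name an HA-tagged Zld transgene, and those of the brat condition name brat, a translational repressor whose loss lets type II neuroblasts accumulate. The genotype label is the same in both conditions, so what separates them rests on the titles. It lists the allele brat11 opposite DF, the repressor Tub-Gal80ts, which heat inactivates, and the transgene UAS-HA-Zld with its driver WorGal4, a Gal4 line active in neuroblasts under the worniu promoter. Larvae of both were grown at 18°C and held at 33°C for 24 h, and 50 whole brains were used per reaction, so cells other than neuroblasts are in every sample although the cell type label reads type II neuroblast. Peaks give no expression, so that label could not be checked against marker levels. Replicate spread is unknown because each condition has 1 list and its replicates have none, so no test between the conditions was run.

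A peak was counted at a gene when its strongest summit lay in the gene or within 2 kb of either end, and called unmatched (UAS-HA-Zld-only or brat-only) when it shared no base with a peak of the other list. The lists held 9065 peaks in UAS-HA-Zld and 7644 in brat, and 32.9% of the UAS-HA-Zld peaks and 21.9% of the brat peaks were unmatched. Fold enrichment and −log10 q were written for each peak by the authors' caller, and they order peaks inside 1 list but do not measure change between lists. Fragment numbers at a summit were recovered from the fold enrichment and the −log10 p. The lowest local background was 28.8 fragments in the UAS-HA-Zld list and 22.6 in the brat list. Over all peaks the median at the strongest summit was 238 fragments in UAS-HA-Zld and 175 in brat. Depth per sample is unknown, so fragment numbers do not measure change between lists either. Running peak numbers are absent from both lists, 19.5% of each, so a gene without a peak here may have had one that is not among those analysed. All coordinates are dm6.

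Of the 25 bHLH genes with a Zld peak, 18 had one in both conditions, which is 72.0% (Wilson 95% interval 52.4 to 85.7) against 73.0% of the 6854 protein-coding genes with a peak. In the UAS-HA-Zld list 21 of the 34 genes had a peak, against 42.4% of protein-coding genes, and in the brat list 22, against 42.8%. Of the 34, 18 had peaks in both lists (35.9% of protein-coding genes did), 3 in the UAS-HA-Zld list alone (amos, ato and Fer1), 4 in the brat list alone (HLH54F, Hand, Mitf and dysf) and 9 in neither. Over all protein-coding genes, 6.47% had peaks in the UAS-HA-Zld list alone and 6.85% in the brat list alone. Unmatched UAS-HA-Zld peaks lay at 8 members (15.4% of protein-coding genes) and unmatched brat peaks at 10 (14.9%).

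The members are longer than most genes, with a median of 4.61 kb against 2.16 kb, and long genes hold more peaks. With protein-coding genes weighted to the members' 10 bins of gene length, the shares corresponded to 17.7 members with a UAS-HA-Zld peak and 18.1 with a brat peak. For unmatched peaks the same weighting gave 7.11 members in UAS-HA-Zld and 6.92 in brat. Having peaks in one list alone corresponded to 2.09 members for UAS-HA-Zld and 2.48 for brat. The weighted shares of all 6 measures lay inside the Wilson 95% intervals of the members' shares, which cover counting error only. Unweighted, the shares of protein-coding genes with a UAS-HA-Zld peak, with a brat peak and with a brat-only peak lay below those intervals, and the share with no peak in either list, 50.8%, lay above its own. For genes with no peak at all the members' share was 26.5% (interval 14.6 to 43.1) and the weighted share 40.6%, also inside it.

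**Figure D1:**
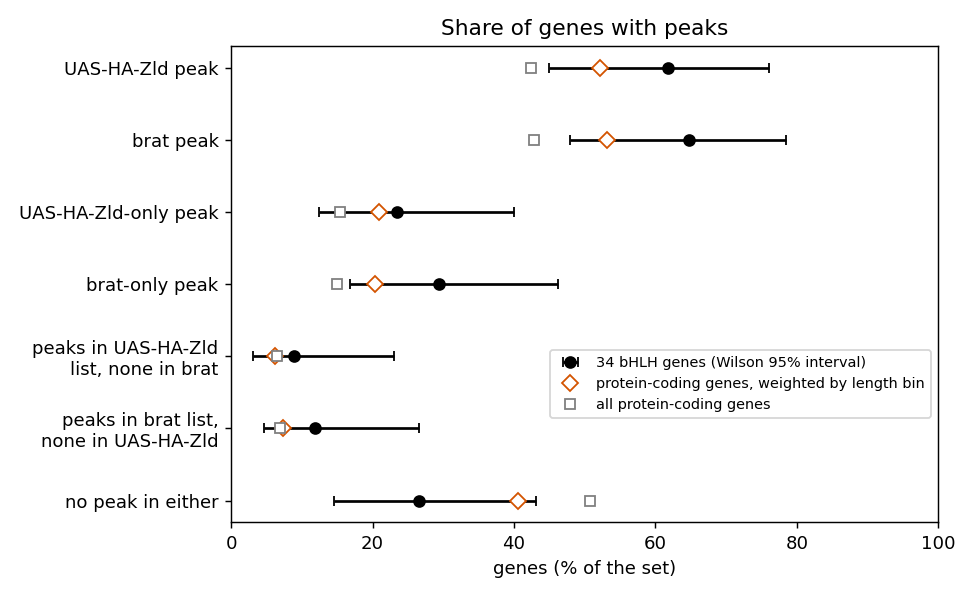
Share of genes in percent (horizontal axis) that meet each of 7 peak measures (rows). Black points are the 34 bHLH genes with Wilson 95% intervals, open diamonds are protein-coding genes weighted to the members' length bins and open squares are all protein-coding genes; the diamond lies inside the interval in every row.

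The members held 77 UAS-HA-Zld peaks and 76 brat peaks, and no peak was counted for more than 1 of them. Per 100 kb of gene windows this was 13.6 peaks in UAS-HA-Zld and 13.4 in brat, where all protein-coding genes had 7.88 in UAS-HA-Zld and 7.30 in brat. Among the 10 members of 20 kb or longer it was 13.1 in UAS-HA-Zld and 13.6 in brat, against 6.60 in UAS-HA-Zld and 5.43 in brat at the 1012 protein-coding genes of that length. Mnt and tai weigh on these values, and without them the long members had 8.21 peaks per 100 kb in UAS-HA-Zld and 9.70 in brat. The median number of peaks at a long member was 2.5 in both lists, and at a long protein-coding gene 2. Without Mnt and tai the median at a long member was 2 in UAS-HA-Zld and 1.5 in brat. Of the members' peaks, 16 in each list were unmatched, which is 20.8% of the UAS-HA-Zld peaks (interval 13.2 to 31.1) and 21.1% of the brat peaks (13.4 to 31.5). These intervals treat peaks as independent although many lie at the same gene, so they may be too narrow. At all protein-coding genes 29.6% of UAS-HA-Zld peaks and 22.7% of brat peaks were unmatched. Mnt and tai together hold many of the matched peaks, and without them 12 of 48 UAS-HA-Zld peaks and 15 of 49 brat peaks were unmatched. Where a UAS-HA-Zld peak at a member had a partner, the strongest summits of the pair lay a median of 32 bp apart and 41 of 61 pairs were within 50 bp. Over all 6085 matched UAS-HA-Zld peaks the median was 25 bp and 63.3% were within 50 bp.

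**Figure D2:**
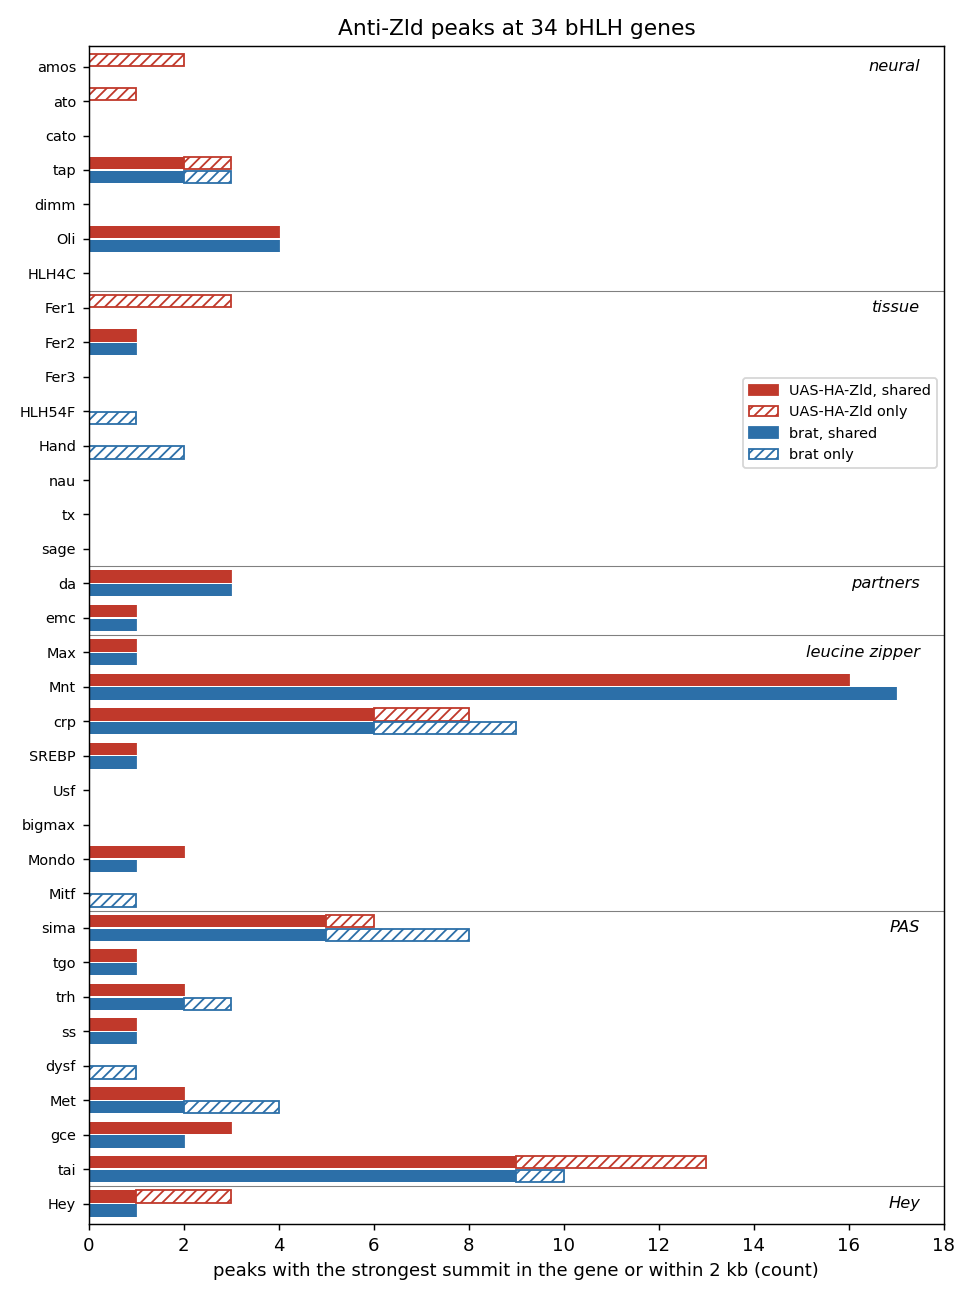
Number of peaks (horizontal axis) at each of the 34 bHLH genes (rows, grouped by role), with UAS-HA-Zld bars above brat bars; filled parts are peaks that share bases with the other list and hatched parts are unmatched peaks. Mnt has the longest bars, 16 in UAS-HA-Zld and 17 in brat with none unmatched, while amos, ato, Fer1, HLH54F, Hand, Mitf and dysf have hatched bars in one list alone.

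Among the 7 neural factors, 4 had a UAS-HA-Zld peak and 2 a brat peak. Over all protein-coding genes the shares were 42.4% for UAS-HA-Zld and 42.8% for brat. Role groups differ in gene length, and their counts were not tested against each other. The proneural gene ato, which founds the stretch receptors and the R8 photoreceptor, had a UAS-HA-Zld peak of 1829 bp (chr3R:8276554-8278382) with 4 summits. Its strongest summit held 773 fragments over a background of 122, a fold of 6.31, and lay 156 bp outside the gene. In the brat list the nearest peaks to ato were 13.8 kb and 70.7 kb away on its sides. The related proneural gene amos, which founds olfactory sense organs and some dendritic sensory neurons, had 2 UAS-HA-Zld peaks and no brat peak. The stronger (chr2L:18596663-18597398) held 416 fragments at its summit, a fold of 7.17, and lay 179 bp outside the gene. The weaker (chr2L:18598022-18598420) held 184 fragments, a fold of 3.18, and lay 1.23 kb away. For each gene at least 1 running number was absent from the brat list between the flanking peaks, 3 at ato and 1 at amos, and what those numbers held was not tested.

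The neurogenin relative tap, which acts in neurite growth, had a pair of matched peaks and 1 unmatched peak in each list. The matched peak beside its left end had folds of 8.01 in UAS-HA-Zld and 4.65 in brat, with 995 fragments in UAS-HA-Zld and 444 in brat at summits 33 bp apart. The matched peak beside its right end had folds of 4.91 in UAS-HA-Zld and 3.96 in brat. The UAS-HA-Zld-only peak of tap (chr3L:17362886-17363382) held 725 fragments, the highest fold of the gene, 8.84, and lay 1.38 kb outside the right end. At least 1 brat running number was absent beside that peak, and its part in this was not tested. The brat-only peak (chr3L:17357626-17357860) was weak, with 81 fragments and a fold of 2.28, and its summit lay nearer to the end of CG7692. Left and right refer to rising coordinates, since the strand of genes was not used here.

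Oli, an Olig-family factor of motor neurons, was the neural gene with the strongest peaks in each condition, and all its peaks were shared. It had 4 peaks in each list with matched summits 2 to 34 bp apart. The peak with the highest −log10 q in the UAS-HA-Zld list (chr2L:17588186-17588692) had 2399 fragments and a fold of 13.5 in UAS-HA-Zld, and 1083 fragments and a fold of 9.41 in brat. It ranked 71st of the UAS-HA-Zld list by −log10 q. The next (chr2L:17589028-17589581) covered the left end of the gene, with 1762 fragments and a fold of 16.5 in UAS-HA-Zld, and 965 fragments and a fold of 14.4 in brat. The peak farthest outside the gene had folds of 13.2 in UAS-HA-Zld and 4.69 in brat, and the one inside it had 3.57 in UAS-HA-Zld and 7.18 in brat, so the order of the peaks by fold differed between the lists. The sensory neuron gene cato, dimm, the master factor of peptide-secreting neurons, and HLH4C had no peak in either list. The nearest peaks to dimm lay 2.87 kb outside it in UAS-HA-Zld and 2.57 kb in brat, and those to HLH4C 2.51 kb in UAS-HA-Zld and 2.52 kb in brat.

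Among the 8 factors of other tissues, 2 had a UAS-HA-Zld peak and 3 a brat peak, and only the peak at Fer2 was shared. Protein-coding genes had shares of 42.4% with a UAS-HA-Zld peak and 42.8% with a brat peak. Each list had 4 peaks at these factors, and 3 of the 4 were unmatched, all beside absent running numbers of the other list. At all protein-coding genes 29.6% of UAS-HA-Zld peaks and 22.7% of brat peaks were unmatched. Fer2 was grouped with its relatives Fer1 and Fer3 although it acts in clock and dopamine neurons. Counted as neural, it would make 5 of 8 neural factors with a UAS-HA-Zld peak and 3 with a brat peak, and leave no shared peak among the other 7. It had a UAS-HA-Zld peak of 1034 bp (chr3R:16151885-16152918) with 814 fragments and a fold of 13.8. Its brat peak (chr3R:16152400-16152797) was 398 bp wide, with 135 fragments and a fold of 3.22, and the summits lay 5 bp apart. Fer1, a relative of the vertebrate pancreas factor Ptf1a, had 3 UAS-HA-Zld peaks and none in brat, with folds of 4.34, 2.72 and 1.38. The last had a −log10 q of 2.16 and ranked 8970th of the 9065 peaks.

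Hand, a factor of heart and visceral muscle, and HLH54F, which specifies the caudal visceral mesoderm, had peaks in the brat list alone. At Hand there were 2. The stronger (chr2L:10291425-10292462) had 146 fragments and a fold of 5.47, but its summit lay nearer to the end of the neighbouring gene Ufd4. The weaker, 96 bp outside Hand, had 92 fragments and a fold of 2.94. HLH54F had 1 brat peak (chr2R:17760931-17761452) with 183 fragments and a fold of 3.45, 542 bp outside the gene. Between the UAS-HA-Zld peaks that flank them, 5 running numbers were absent at Hand and 1 at HLH54F, and their part in this was not tested. The MyoD-family gene nau, the muscle attachment gene tx, the salivary gland gene sage and Fer3 had no peak in either list.

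**Figure D3:**
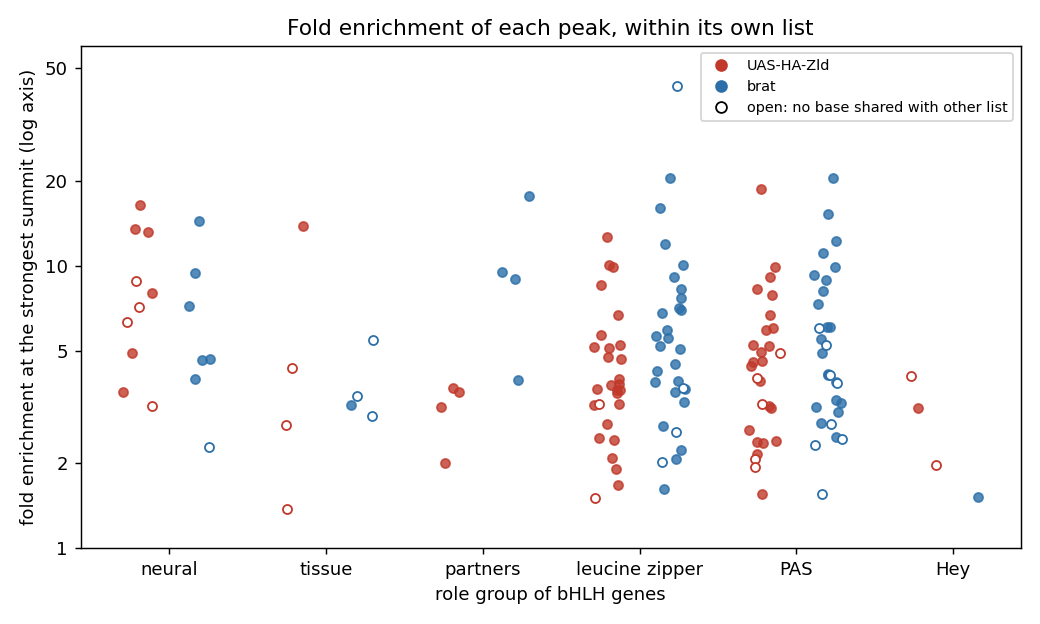
Fold enrichment at the strongest summit of each peak (vertical axis, logarithmic) by role group (horizontal axis), UAS-HA-Zld left of brat in each group; filled points share bases with a peak of the other list and open points do not. The highest point is the brat-only peak at Mitf (fold 43.1), and folds compare peaks only within a list.

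The general partners had peaks in both conditions and no unmatched peak. Peaks in both lists were found at 35.9% of protein-coding genes. The product of da, the fly E-protein, pairs with proneural factors, and that of emc, the Id-type inhibitor without a basic region, ties such factors up. At da 3 peaks were found in each list. The peak within its left part (chr2L:10388003-10388931) had 159 fragments and a fold of 3.68 in UAS-HA-Zld, and its brat partner had 268 fragments and a fold of 8.95. The peak nearer its right end had 187 fragments and a fold of 2.01 in UAS-HA-Zld, and 583 fragments and a fold of 9.53 in brat. Outside the left end the folds were 3.59 in UAS-HA-Zld and 17.6 in brat. That peak's strongest summits lay 677 bp apart, nearest to the end of mRpS7 in UAS-HA-Zld and of the mitotic kinase gene Cdk1 in brat. The single peak at the left end of emc had 326 fragments and a fold of 3.15 in UAS-HA-Zld, and 309 fragments and a fold of 3.94 in brat.

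Of the 8 leucine zipper factors, 5 had a UAS-HA-Zld peak and 6 a brat peak, against 42.4% and 42.8% of protein-coding genes in the same order. Mnt, the repressor that competes with Myc for Max, had more peaks than any other member, 16 in UAS-HA-Zld and 17 in brat over a gene of 29.9 kb, and every one was matched. Folds at Mnt ran from 1.67 to 10.05 in UAS-HA-Zld and from 1.62 to 20.4 in brat. Its strongest UAS-HA-Zld peak by −log10 q (chrX:3677447-3677935) held 1351 fragments, a fold of 5.11, and its brat partner 1437, a fold of 8.26. At the peak that was strongest in brat (chrX:3686528-3687458), the UAS-HA-Zld partner held 767 fragments, a fold of 8.57, and the brat peak 1305, a fold of 20.4. Max, the shared partner of Myc and Mnt, had 1 matched peak with folds of 3.63 in UAS-HA-Zld and 3.88 in brat, which lay 1.69 kb outside the gene and nearest to the end of nes.

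The AP-4 homologue crp had 8 UAS-HA-Zld and 9 brat peaks, 6 of each matched. The peak over its right end had 1025 fragments and a fold of 5.22 in UAS-HA-Zld, and 1046 fragments and a fold of 16.1 in brat, but with the strongest summits 836 bp apart. A second matched peak had its summit on the same base in both lists (chr2L:16284235-16285092 in UAS-HA-Zld), with 928 fragments and a fold of 3.96 in UAS-HA-Zld, and 1128 fragments and a fold of 6.96 in brat. The unmatched peaks of crp had folds of 3.25 and 1.51 in UAS-HA-Zld and 2.02 to 3.69 in brat. Its matched peaks had folds as low as 2.42 in UAS-HA-Zld and 2.71 in brat. The brat-only peak with a fold of 3.69 lay 1.90 kb outside crp and nearest to the end of twe.

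Mondo, the sugar-sensing factor, had its strongest peak (chr2L:21309227-21310253) just inside its right end, with 1451 fragments and a fold of 12.6 in UAS-HA-Zld and 998 fragments and a fold of 11.9 in brat. A second UAS-HA-Zld peak outside that end (fold 5.69) overlapped the same brat peak and lay nearest to the end of crc. SREBP, the regulator of lipid synthesis, had 1 matched peak at its left end, with folds of 3.64 in UAS-HA-Zld, where the summit lay nearest to the end of CG42637, and 5.91 in brat, where it lay inside SREBP. Usf and bigmax, which encodes the partner of Mondo, had no peak in either list. Mitf, which controls lysosomal genes, had no UAS-HA-Zld peak and 1 brat peak on chromosome 4 that overlaps its left end. That peak had the highest fold of all member peaks, 43.1, from 1016 fragments over a background at the floor of 22.6. The nearest UAS-HA-Zld peak lay 16.8 kb to the left of Mitf, none lay to its right on that arm, and 3 UAS-HA-Zld running numbers were absent there, and their part in this was not tested.

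Of the 8 PAS factors, 7 had a UAS-HA-Zld peak and all 8 had one in brat, the difference being dysf. Of all protein-coding genes, whatever their length, 42.4% had a UAS-HA-Zld peak and 42.8% a brat peak. Most PAS genes are long, with a range of 3.25 kb (tgo) to 83.4 kb (tai). Protein-coding genes of 20 kb or longer had a median of 2 peaks in each list, and the part of length in the PAS counts was not tested. The long gene tai, a coactivator of the ecdysone and juvenile hormone receptors, had 13 UAS-HA-Zld and 10 brat peaks, 9 of each matched. Its strongest UAS-HA-Zld peak (chr2L:9224057-9224873) had 825 fragments and a fold of 18.7, and the brat partner 387 fragments and a fold of 12.3, with summits 1 bp apart. At the peak that was strongest in brat (chr2L:9237089-9238162), the UAS-HA-Zld partner had 525 fragments and a fold of 6.67, and the brat peak 787 fragments and a fold of 15.3. The 4 UAS-HA-Zld-only peaks of tai had folds of 1.94 to 4.90, and 3 of them lay in the first 12 kb of its left part, while the brat-only peak had a fold of 6.02.

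The gene for the hypoxia factor, sima, had 6 UAS-HA-Zld and 8 brat peaks, 5 of each matched. A cluster of 4 matched peaks lay 37.4 to 42.6 kb from its left end. Along that cluster the folds in UAS-HA-Zld were 2.63, 2.15, 4.59 and 4.56, with 394, 108, 837 and 216 fragments. Their partners in brat had folds of 9.86, 11.1, 8.93 and 8.13, with 765, 403, 1096 and 268 fragments. At the left end of sima each list had its own peak, with a fold of 2.06 in UAS-HA-Zld and 5.24 in brat, and their summits lay 634 bp apart with no base shared. The other brat-only peaks of sima had folds of 4.10 and 2.33.

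**Figure D4:**
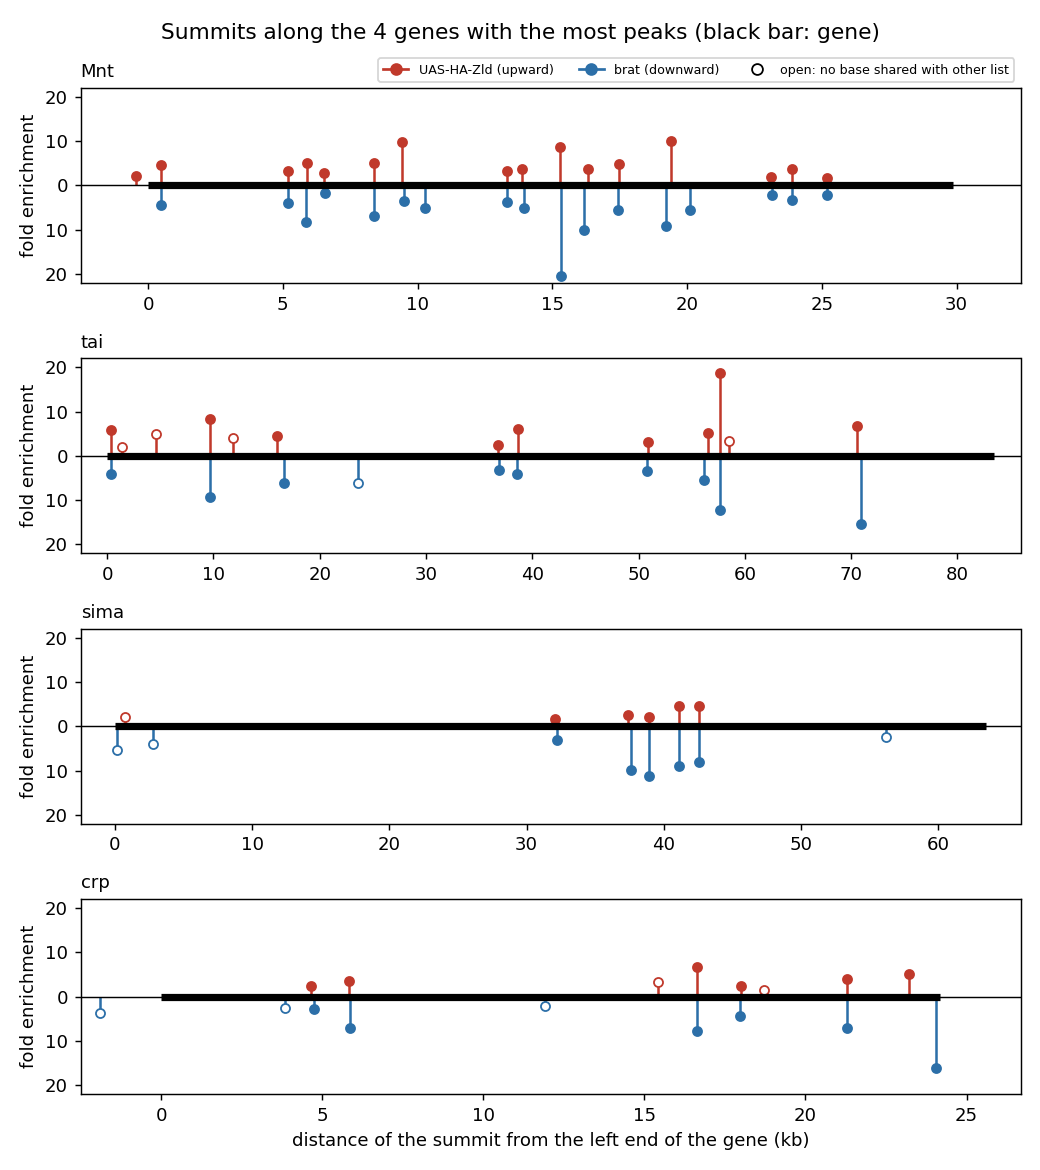
Fold enrichment (vertical axis) at the strongest summit of each peak against its distance in kb from the left end of Mnt, tai, sima and crp (horizontal axis); UAS-HA-Zld points upward, brat points downward, open circles are unmatched and the black bar is the gene. Most summits face each other, as in the cluster at 37.4 to 42.6 kb in sima.

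The other PAS genes had fewer peaks. At ss, the fly aryl hydrocarbon receptor gene, 1 peak lay over the right end, with 1292 fragments and a fold of 9.12 in UAS-HA-Zld, and 585 fragments and a fold of 6.08 in brat, at summits 4 bp apart. The gene trh, whose product starts tracheal development, had 2 matched peaks inside it. The stronger (chr3L:377811-378645) had 1608 fragments and a fold of 7.86 in UAS-HA-Zld, and 648 fragments and a fold of 4.91 in brat. The weaker had 663 fragments in UAS-HA-Zld and 269 in brat. A brat-only peak at its right end had a −log10 q of 4.62. The tracheal fusion gene dysf had only a brat peak, with 63 fragments and a fold of 2.43. The common PAS partner gene tgo had 1 matched peak near its right end, with folds of 5.18 in UAS-HA-Zld and 7.35 in brat.

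The receptors for juvenile hormone are encoded by Met and gce. Met had 2 UAS-HA-Zld peaks with folds of 2.36 and 2.40, and 4 brat peaks with folds of 2.48 to 3.87, of which 2 were unmatched. Both UAS-HA-Zld summits and 3 of the 4 brat summits lay nearest to the end of RPA3 or Ptp10D, and the brat-only peak inside Met had a fold of 3.84. At gce the strongest peak (chrX:15319401-15320651) had 618 fragments and a fold of 9.94 in UAS-HA-Zld. Its brat partner had 907 fragments and a fold of 20.4 with the summit on the same base. That summit lay 1.18 kb outside gce and nearest to the end of the topoisomerase gene Top1. Hey had 3 UAS-HA-Zld peaks and 1 brat peak. The shared one at its right end had 442 fragments and a fold of 3.12 in UAS-HA-Zld, and 143 fragments and a fold of 1.52 in brat, and the UAS-HA-Zld-only ones had folds of 4.08, nearest to the end of Dic3, and 1.97.

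The windows of neighbouring genes overlap, so a peak counted here need not belong to the bHLH gene. The nearest end of any protein-coding gene was that of the member for 62 of the 77 UAS-HA-Zld peaks and 62 of the 76 brat peaks. Member peaks lay within 500 bp of a gene end in 27.3% of cases in UAS-HA-Zld and 31.6% in brat. Peaks at all protein-coding genes did so in 37.1% of cases in UAS-HA-Zld and 44.7% in brat. Without Mnt and tai the members' shares were close to these, 37.5% in UAS-HA-Zld and 44.9% in brat. In the strongest 10% of their list were 9 of the 77 UAS-HA-Zld peaks (11.7%, against 9.77% at all protein-coding genes) and 12 of the 76 brat peaks (15.8%, against 10.2%). Just inside the limit of 2 kb lay 4 UAS-HA-Zld summits at 1.69 to 1.93 kb and 5 brat summits at 1.67 to 1.99 kb. Just outside it lay 4 UAS-HA-Zld summits at 2.20 to 2.32 kb and 3 brat summits at 2.12 to 2.34 kb, among them further unmatched peaks of tap and Fer1 in UAS-HA-Zld (folds 7.70 and 6.60) and of Mitf in brat (7.84).

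Absent peak numbers bear on every gene found in one list alone. For all 3 genes with UAS-HA-Zld peaks alone, at least 1 brat number was missing between the brat peaks that flank the gene's window. The same held for UAS-HA-Zld numbers at all 4 genes with brat peaks alone. Over all protein-coding genes, such a gap was found for 61.9% of those with UAS-HA-Zld peaks alone and 66.9% of those with brat peaks alone. Absent numbers of the other list also lay beside 11 of the 16 unmatched UAS-HA-Zld peaks of members and 10 of the 16 brat ones. Among them were unmatched peaks of tap, tai and sima, which had peaks in both lists. At protein-coding genes this was so for 1170 of 2207 unmatched UAS-HA-Zld peaks and 941 of 1509 unmatched brat peaks. A removed peak and a peak that was never called cannot be told apart in these lists.

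A list of 22 further bHLH genes, which holds the achaete-scute and Enhancer of split members together with other factors such as Myc, twi and dpn, gives a wider frame. Of these, 21 had a UAS-HA-Zld peak and 20 a brat peak, and none lacked a peak in both. Among protein-coding genes 42.4% had a UAS-HA-Zld peak, 42.8% a brat peak and 50.8% neither. Unmatched UAS-HA-Zld peaks lay at 8 of the 22 genes (15.4% of protein-coding genes) and unmatched brat peaks at 4 (14.9%). Of the peaks at the 22 genes, 17 of 51 in UAS-HA-Zld and 4 of 37 in brat were unmatched. At all protein-coding genes 29.6% of UAS-HA-Zld peaks and 22.7% of brat peaks were. Several of the 22 genes are neighbours whose windows overlap. Whether these counts differ from those of the 34 was not tested.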

How the data were processed

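CUT&RUN libraries of L3 brains were made with an anti-Zld antibody, per the labels' protocols, and sample groups were taken from the titles. Bowtie2, MACS2 and deepTools 3.5.1 with build dm6 are named in the submitters' processing notes. The control, the filters and any pooling of replicates are not stated there. The deposited narrowPeak lists hold, per summit, a score (not used), the fold enrichment as a ratio of pileup to local background, the −log10 of p and q, and the summit offset. Depth per sample is unknown.

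Here rows of 1 interval were merged into 1 peak, placed by the summit with the highest −log10 q. Peaks sharing at least 1 bp were matched. Genes came from the RefSeq table of Release 6, which gives no strand. Pileup and background were solved from fold and −log10 p under the Poisson test of MACS2 and for 100% of peaks a whole-number pileup gave back the listed −log10 p (relative tolerance 0.0001). Matching, placing and the solver were tested on simulated data. Shares carry Wilson 95% intervals. Python 3.11.15, pandas 2.3.3 and scipy 1.17.1 were used.

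All members are accounted for, and those with a peak in 1 list alone, an unmatched peak, or the highest −log10 q of their role group are named with values; other values were chosen after they were seen. Members, lists and alternatives were chosen with earlier results of these data known.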

Additional observations from a re-analysis of the deposited data

How the results depend on the processing

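No paired analysis was possible because each condition has 1 peak list, so neither the replicate numbers nor single replicates enter any value. Of 76 recomputed values, 64 stayed within 1.5 times the count or within the Wilson interval of the reported one, under stricter −log10 q, equal list lengths, other windows, any summit placing the peak and the nearest gene end, and 12 moved. Some of the 64 could not move. A stricter overlap leaves the counts of peaks and of members with a peak unchanged. Equal list lengths shorten only the UAS-HA-Zld list and leave those counts unchanged in brat. Asking for an overlap of 50% of each peak raised the members with an unmatched peak to 16 for UAS-HA-Zld (21.3% of protein-coding genes) and 17 for brat (21.1%), and the unmatched share of their peaks to 37.7% for UAS-HA-Zld (42.1% at protein-coding genes) and 36.8% for brat (35.0%). Counting only summits inside the gene left 12 members with a UAS-HA-Zld peak (23.8% of protein-coding genes), 14 with a brat peak (24.2%), 5 whose UAS-HA-Zld peaks include an unmatched one (8.22%) and 6 whose brat peaks do (7.61%), since fewer peaks enter. Leaving out unmatched peaks beside absent numbers of the other list, an alternative chosen after seeing the data, gave 4 members with an unmatched UAS-HA-Zld peak (7.73% of protein-coding genes) and 5 with an unmatched brat peak (6.18%), and unmatched shares of 7.58% in UAS-HA-Zld (16.5% at protein-coding genes) and 9.09% in brat (9.96%). The planned distances to gene starts and the count of the Zld motif CAGGTA in promoters were not run, since strand and sequence were not used here.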
